A study of Heliconius himera and Heliconius erato lativitta and Heliconius erato petiverana with 18 samples.

Results

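The subject is a set of 40 gene IDs whose messenger RNA was more abundant in forewings (FW) than in hindwings (HW) in each of 3 Heliconius butterfly taxa. The 40 were taken from the 14612 IDs in the deposited count tables by their measured wing difference. With X as 1 plus the plain counts per 1000000 gene reads (CPM), the mean log2 X of FW minus that of HW was computed in each taxon for the 9704 IDs with a mean of at least 1 CPM. IDs positive in all 3 taxa were ranked by the smallest of the 3 values, and the first 40 were kept. The members were thus chosen by the FW minus HW difference in all 18 libraries, and its values are given as a description.

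RNA sequencing was done on whole wings at day 3 after pupation, in insects reared at about 27 °C, per the labels. The 6 groups of 3 numbered libraries were FW and HW of Heliconius himera, of H. erato lativitta and of H. erato petiverana. The labels name no treatment, age beyond the pupal day, sex or genotype, and they do not say whether a library is 1 animal or a pool. Nor do they say that a group holds separate animals, so the spread behind each p-value is that between these libraries and may be technical.

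In butterflies the forewings and hindwings grow from imaginal discs of neighbouring thoracic segments. In the pupa each wing is an epithelial sheet in which scale precursor cells form and the colour pattern is laid down. Hindwing identity is set by the homeotic gene Ultrabithorax, which is expressed in the hindwing and absent from most of the forewing. The count tables pair IDs with 0 gene names and no annotation was used here, so roles, positions and sequences of the members were not analysed here, nor were markers of wing tissue. In whole wings, more cells of a type and more RNA per cell cannot be told apart.

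Libraries held 4599197 to 17002996 gene reads, and each member had at least 126 reads over the 18 libraries. Reads that overlapped more than 1 feature (ambiguous reads) split the libraries into a lower set of 8, with 0.453% to 0.715% of reads, and a higher set of 10, with 1.40% to 1.77%. All petiverana libraries and himera number 1 were in the lower set, and all lativitta libraries and himera numbers 2 and 3 in the higher set. The scaling factors of the trimmed mean of M-values method (TMM), which correct for a few IDs taking many reads, were 0.522 to 0.740 in the lower set and 1.23 to 1.63 in the higher set. Plain CPM is used below between wings, where FW and HW of each number fell in the same set, and TMM-normalised CPM between taxa.

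The members were higher in FW by a median of 0.71 on the log2 X scale in himera, 0.81 in lativitta and 0.63 in petiverana, where the medians over all 9704 IDs were 0.07, 0.09 and 0.06. Values of the members ran from 0.41 to 2.10 in himera, from 0.40 to 2.89 in lativitta and from 0.40 to 1.53 in petiverana. A log2 X difference above 1 was reached by 9 members in himera, 12 in lativitta and 3 in petiverana. Petiverana gave the smallest of the 3 values for 22 members and lativitta the largest for 20. In each taxon most members differed by less than 1.

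**Figure D1:**
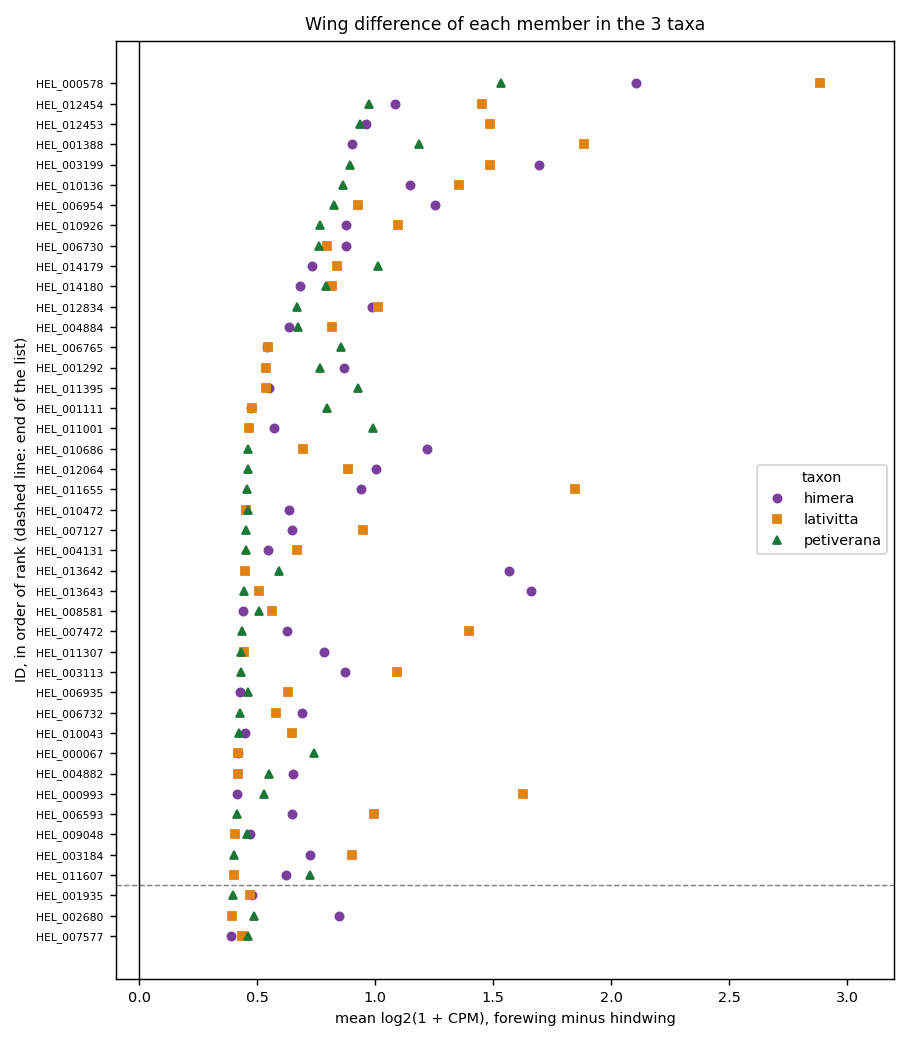
Mean log2(1 + CPM) in forewing minus hindwing (x axis) for each of the 40 members and the 3 IDs ranked just below them (y axis, in order of rank), with 1 symbol per taxon. The first-ranked HEL_000578 stands at 1.53 to 2.89, while the lower part of the list lies near 0.40 in at least 1 taxon.

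How many IDs favoured a wing depended on the scaling. With plain CPM 2932 of the 9704 IDs (30.2%) were positive in all 3 taxa and 606 (6.24%) negative. With TMM-normalised CPM, where the medians over all IDs were 0.00 in himera, 0.00 in lativitta and -0.01 in petiverana, 1449 of 9726 IDs (14.9%) were positive in all 3 and 1499 (15.4%) negative. All 40 members stayed positive in all 3 taxa with TMM, with values from 0.29 upward, and 34 of the 40 were taken again. With plain CPM the same rule turned to HW began with larger values, -3.76 and -2.50 for its first 2 IDs, then -0.76 for the next and -0.24 for the 40th. Against that the FW list began at 1.53 and ended at 0.40. With TMM the HW list began at -4.01 and -3.01 and ended at -0.32, and the FW list began at 1.49 and ended at 0.34. The ends of the 2 lists were thus closer in size with TMM.

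HEL_000578 ranked first, and in each taxon it was higher in every FW library than in the HW library of the same number. Library values are given throughout in the order of numbers 1, 2 and 3. In himera HEL_000578 was at 146, 48.8 and 29.1 CPM in FW and at 17.99, 11.4 and 10.8 in HW. In lativitta it was at 199, 283 and 103 CPM in FW and at 32.8, 8.26 and 45.6 in HW. The wings did not overlap in either taxon. In petiverana HEL_000578 was at 14.2, 329 and 1492 CPM in FW and at 3.50, 112 and 612 in HW. There the numbers differed far more than the wings, so the groups overlapped although each FW library exceeded its HW counterpart. The ratios of mean CPM, FW to HW, were 5.57 in himera, 6.75 in lativitta and 2.52 in petiverana.

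HEL_012454 and HEL_012453, whose ID numbers are consecutive, had ranks 2 and 3. HEL_012454 was at 57.2, 304 and 209 CPM in himera FW against 21.2, 179 and 97.0 in HW. In lativitta it was at 817, 917 and 506 CPM in FW against 258, 182 and 391 in HW. In petiverana it was at 48.6, 151 and 151 CPM in FW against 23.7, 85.7 and 70.0 in HW. The wings were apart in lativitta alone, and in himera and petiverana number 1 was low in both wings. HEL_012453 followed the same order of libraries, with 348, 423 and 236 CPM in lativitta FW and 115, 77.6 and 175 in HW. The FW to HW ratio of mean CPM was 1.92, 2.70 and 1.96 for HEL_012454 and 1.93, 2.74 and 1.88 for HEL_012453 in himera, lativitta and petiverana.

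HEL_001388 and HEL_003199 were the members whose FW libraries all lay above all HW libraries in each of the 3 taxa. HEL_001388 was a rarely read ID, at 1.52, 2.26 and 1.01 CPM in himera FW and 0.439, 0.412 and 0.242 in HW. In lativitta it was at 6.91, 7.69 and 5.19 CPM in FW and 0.785, 0.217 and 2.91 in HW. In petiverana it was at 1.17, 2.18 and 1.53 CPM in FW and 0.159, 0.128 and 0.140 in HW. The petiverana HW group held 3 reads against 34 in FW, a ratio of 12.1 with an exact 95% interval of 3.80 to 61.5 that covers counting error only. In himera the groups held 38 and 12 reads and in lativitta 128 and 22. HEL_001388 was thus apart between wings while resting on few reads.

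HEL_003199 was at 10.4, 20.1 and 21.7 CPM in himera FW and 4.83, 8.41 and 1.94 in HW. In lativitta it was at 35.2, 34.7 and 42.4 CPM in FW and 13.5, 8.48 and 17.6 in HW. In petiverana it was at 11.5, 15.6 and 8.39 CPM in FW and 7.16, 4.21 and 6.16 in HW. The narrowest margin was in petiverana, between FW number 3 and HW number 1. FW to HW ratios of mean CPM for HEL_003199 were 3.44, 2.84 and 2.03. HEL_010136 showed ratios of 2.57, 2.73 and 2.05 and was apart between wings in himera and lativitta. Its petiverana libraries overlapped, at 15.2, 6.18 and 9.91 CPM in FW and 6.996, 4.21 and 4.06 in HW.

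HEL_006954 and HEL_006730 were lower in each HW library than in its FW counterpart in himera and petiverana, but their groups overlapped in every taxon. HEL_006954 was at 6.32, 28.4 and 38.2 CPM in himera FW and 5.996, 9.29 and 7.63 in HW. In petiverana it was at 10.1, 35.8 and 42.5 CPM in FW and 2.39, 27.3 and 32.5 in HW. Number 1 was the low library of both taxa in both wings. HEL_006730 was at 10.3, 16.4 and 29.6 CPM in himera FW against 3.07, 15.6 and 13.5 in HW, and its lativitta FW libraries held 75.9, 94.8 and 40.9 against 44.9, 16.5 and 72.5 in HW.

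HEL_010926 entered the list without a steady wing difference. In himera only number 1 held it in quantity, at 312 CPM in FW and 39.9 in HW, and numbers 2 and 3 were at 0.424 and 0 in FW and 0.294 and 0.363 in HW. In lativitta FW number 2 was at 7.88 CPM and all other libraries at 0.471 or below. In petiverana it was at 70.8, 109 and 444 CPM in FW and 28.6, 118 and 203 in HW. The wing order was reversed in at least 1 equal-numbered pair of each taxon. FW number 1 held most of the himera FW reads and FW number 2 most of those of lativitta.

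HEL_014179 had rank 10. It was at 59.9, 195 and 142 CPM in himera FW and 58.9, 92.3 and 66.0 in HW. In lativitta it was at 148, 165 and 129 CPM in FW and 67.6, 98.3 and 81.6 in HW. In petiverana it was at 43.7, 57.5 and 51.1 CPM in FW and 19.9, 29.1 and 25.5 in HW. The wings were apart in lativitta and petiverana, and in himera number 1 hardly differed between wings. FW to HW ratios of mean CPM were 1.83, 1.79 and 2.05.

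**Figure D2:**
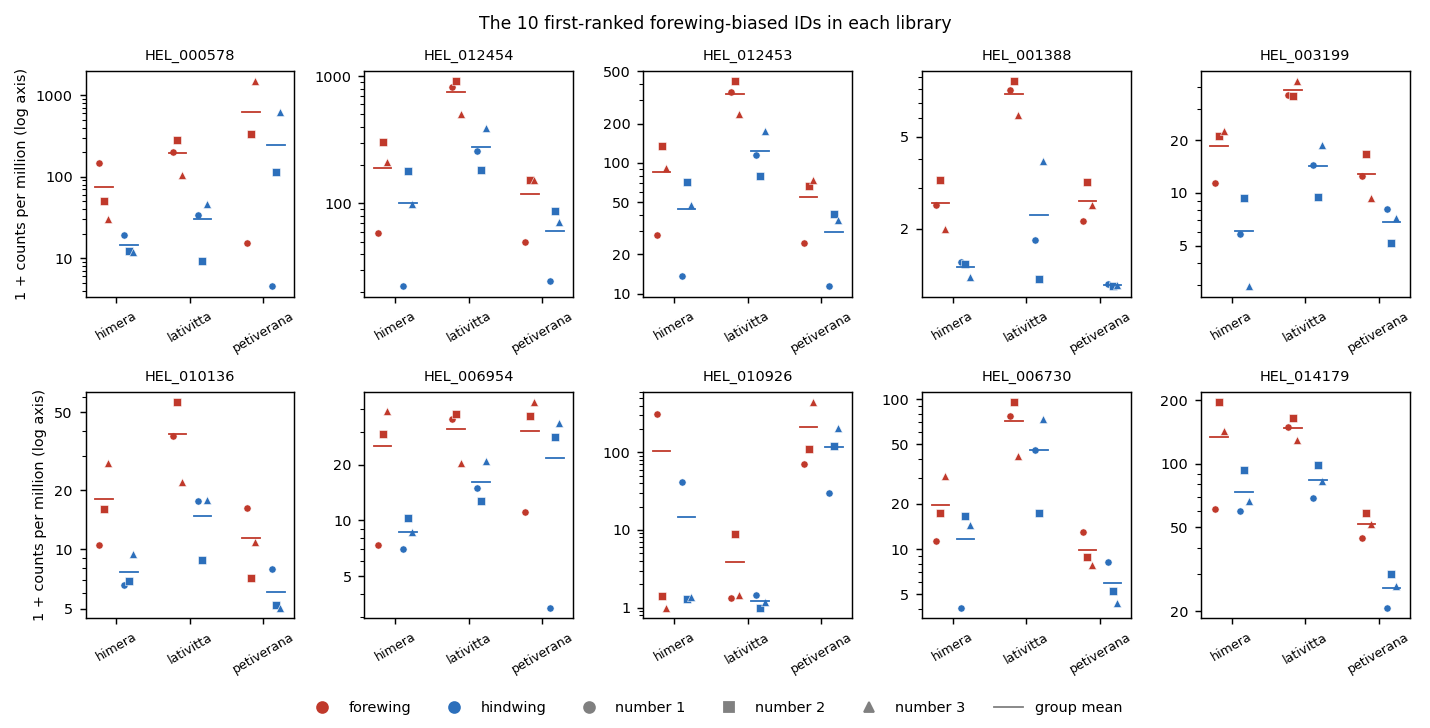
1 + CPM on a log axis (y axis) in each library for the 10 first-ranked members, by taxon (x axis), with forewing in red and hindwing in blue, number by symbol, and the arithmetic mean of each group as a line. HEL_001388 and HEL_003199 have all forewing points above all hindwing points in each taxon, and for HEL_010926 single libraries carry the himera and lativitta forewing means.

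Over the whole list, FW lay above HW without overlap in himera for 6 of 40 members, where 1.24% of the 9704 IDs did. The count was 20 in lativitta (background 5.15%) and 13 in petiverana (background 1.91%). Of the 40, 2 were apart in all 3 taxa (background 0.0309%), 10 in exactly 2 taxa (background 0.433%), 13 in exactly 1 (background 7.34%) and 15 in none (background 92.2%). FW exceeded HW in all 3 equal-numbered pairs for 31 members in himera (background 24.9%) and for 30 in petiverana (background 19.8%). In these taxa the deviations of FW and HW with equal numbers were positively correlated, though the labels do not say that numbers pair the wings. The corresponding count in lativitta, where such a correlation was seen for number 1 only, was 24 (background 13.3%). Since the same values chose the members, nothing is read from these counts beyond how the members differ among themselves. In himera and petiverana most members were higher in FW number by number, although the spread between numbers was wide enough for most of their FW and HW groups to overlap.

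A fit over all 18 libraries with edgeR's quasi-likelihood test called 1 of the 40 members between wings, HEL_001388, higher in FW by a log2 difference of 2.57 (SE 0.41, adjusted p = 0.0498), where 0.0402% of the 9957 IDs tested were called (0.0201% higher in FW and 0.0201% lower). The rule used this contrast, so the call is a description. The replicate number was also fitted as a block within each taxon, although the labels do not say that numbers pair the wings. Lativitta was blocked too, where the deviations of FW and HW with equal numbers did not go together throughout. With this block the difference was 2.61 and the call ended (adjusted p = 0.0957). It also ended with median-of-ratios factors (0.0507) and with no filter (0.0726). Dropping 1 library at a time ended the call 14 times out of 18, with adjusted p from 0.107 without petiverana FW 1 to 0.256 without himera HW 2. The call held when the dropped library was number 3 of himera FW, number 1 of himera HW, or number 2 or 3 of lativitta HW. Leaving out number 1 of himera and petiverana gave an adjusted p of 0.123. For the other 39 members the adjusted p was 0.0984 (HEL_014179) or above.

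At the end of the list stood HEL_009048, HEL_003184 and HEL_011607, with smallest values of 0.41, 0.40 and 0.40. The 3 IDs just outside were HEL_001935, HEL_002680 and HEL_007577, at 0.40, 0.39 and 0.39. HEL_011607, the 40th, and HEL_001935, the 41st, were separated by less than 0.01. Members near that limit changed with single libraries. Removing 1 library at a time, the rule took 17 to 36 of the 40 again, with the fewest without petiverana HW 3 (17), petiverana FW 1 (19), petiverana HW 2 (23), and without himera HW 1, petiverana FW 3 or petiverana HW 1 (24 each). HEL_001388, HEL_003199, HEL_010136 and HEL_012834 were taken in all 18 such lists, 16 members in at least 15 of them and 8 members in fewer than 9.

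Several members had consecutive or nearly consecutive ID numbers. The pairs with consecutive numbers were HEL_012453 with HEL_012454, HEL_013642 with HEL_013643 and HEL_014179 with HEL_014180. A further 2 pairs, HEL_004882 with HEL_004884 and HEL_006730 with HEL_006732, were 2 numbers apart. Whether consecutive numbers are neighbours on a chromosome, or whether such IDs overlap, is not given in the sources used here. The HW list had 4 pairs with consecutive numbers, among them its first 2 IDs HEL_004329 and HEL_004330.

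Within the pairs the 2 IDs moved together from library to library. Across the 18 libraries, which share depth and the split by ambiguous reads, log2 X of HEL_012453 and HEL_012454 correlated with r = 0.997, and the ratio of their CPM stayed between 0.396 and 0.600. For HEL_013642 and HEL_013643 r was also 0.997, with a ratio of 0.111 to 0.253. After subtracting group means r was 0.993 and 0.992 for these pairs. HEL_014179 and HEL_014180 gave 0.929 over libraries and 0.707 after subtraction. HEL_004882 and HEL_004884 gave 0.971 and 0.924, and HEL_006730 and HEL_006732 gave 0.828 and 0.760. The IDs of a pair are therefore not independent of each other. Counts of members take each ID singly, so both IDs of a pair can add to the same count.

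**Figure D3:**
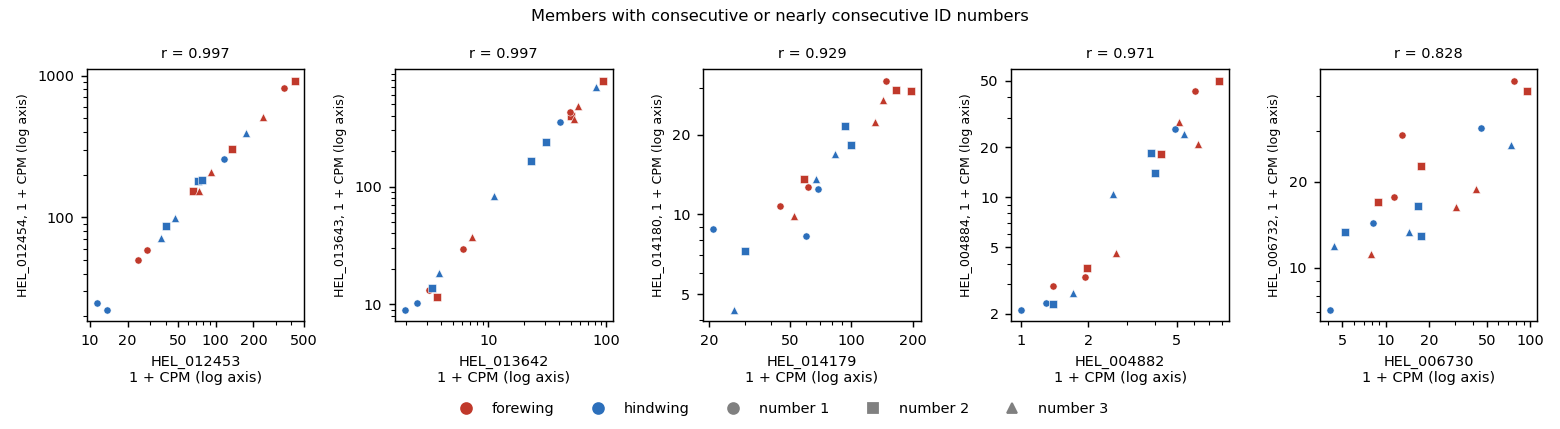
1 + CPM of the first ID of a pair (x axis) against that of the second (y axis), both on log axes, for the 5 pairs of members with consecutive numbers or numbers 2 apart, with 1 point per library, forewing in red and hindwing in blue. HEL_012453 with HEL_012454 and HEL_013642 with HEL_013643 lie close to a line (r = 0.997 each), while HEL_006730 and HEL_006732 scatter more (r = 0.828).

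Some IDs next to members shared the direction. Of 45 IDs with a number 1 before or after a member's, outside the list and past the mean filter, 20 (44.4%) were positive in all 3 taxa, against 30.2% of all IDs. Both shares are on plain CPM. With TMM 14.9% of all IDs were positive, and the share of the 45 on that scale is not given. HEL_000577, next to the first-ranked HEL_000578 and singled out after its values were seen, differed by 4.12 on the log2 X scale in lativitta. It was at 84.7, 99.8 and 38.1 CPM in lativitta FW and 4.55, 0.435 and 7.09 in HW. In himera and petiverana HEL_000577 was at 0.128 to 12.3 CPM, the highest in himera HW 2, and its differences were 0.58 and 0.33. HEL_010137, next to HEL_010136, differed by 1.37, 1.36 and 0.30 and was likewise chosen after its values were seen.

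By likeness of log2 X over the 18 libraries, the 3 IDs closest to HEL_000578 were HEL_000551 (r = 0.928), HEL_000552 (r = 0.919) and HEL_002635 (r = 0.896). None of the 3 was a member. HEL_000551 was higher in FW by 0.48 in himera and 0.86 in lativitta, but by 0.10 in petiverana. HEL_000552 behaved alike, with 0.68, 0.83 and 0.07. The 18 libraries share depth and the large differences between numbers, so these values are a description.

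Relative to the ambiguous-read sets the members were mixed. In TMM-normalised CPM the lower set of libraries lay below the higher set without overlap for 3 members, HEL_004884, HEL_013643 and HEL_011607, and above it for 3, HEL_010926, HEL_000067 and HEL_000993, with backgrounds of 8.93% and 9.74%. On the same scale himera number 1 was below numbers 2 and 3 in both wings for 11 members (background 35.9%) and above them for 14 (background 35.5%).

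Of the 5 members with the most CPM over the libraries, 3 were high in only some of the libraries. HEL_012064 stood at 6343 CPM in FW 1 of petiverana, at 5721 in its HW 1 and at 0.363 to 81.5 in the other 16 libraries. HEL_000993 was at 773 CPM in himera FW 1, at 95.5 in himera HW 1 and at 95.7 to 1888 in petiverana, against 0.870 to 29.5 elsewhere. HEL_013643 was at 28.4 and 9.21 CPM in himera number 1 and 7.95 to 36.1 in petiverana, against 81.5 to 793 in the remaining libraries. The other 2, HEL_001292 and HEL_012454, were spread more evenly, at 57.7 to 1016 and 21.2 to 917 CPM. HEL_007472 resembled HEL_012064, with 1682 and 1157 CPM in petiverana number 1 and 2.24 to 58.0 in the other libraries. Over the 40 members, 2 had over 50% of their summed CPM in 1 library, 5 had 0 reads in at least 1 library, and 10 had a mean below 5 CPM.

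**Figure D4:**
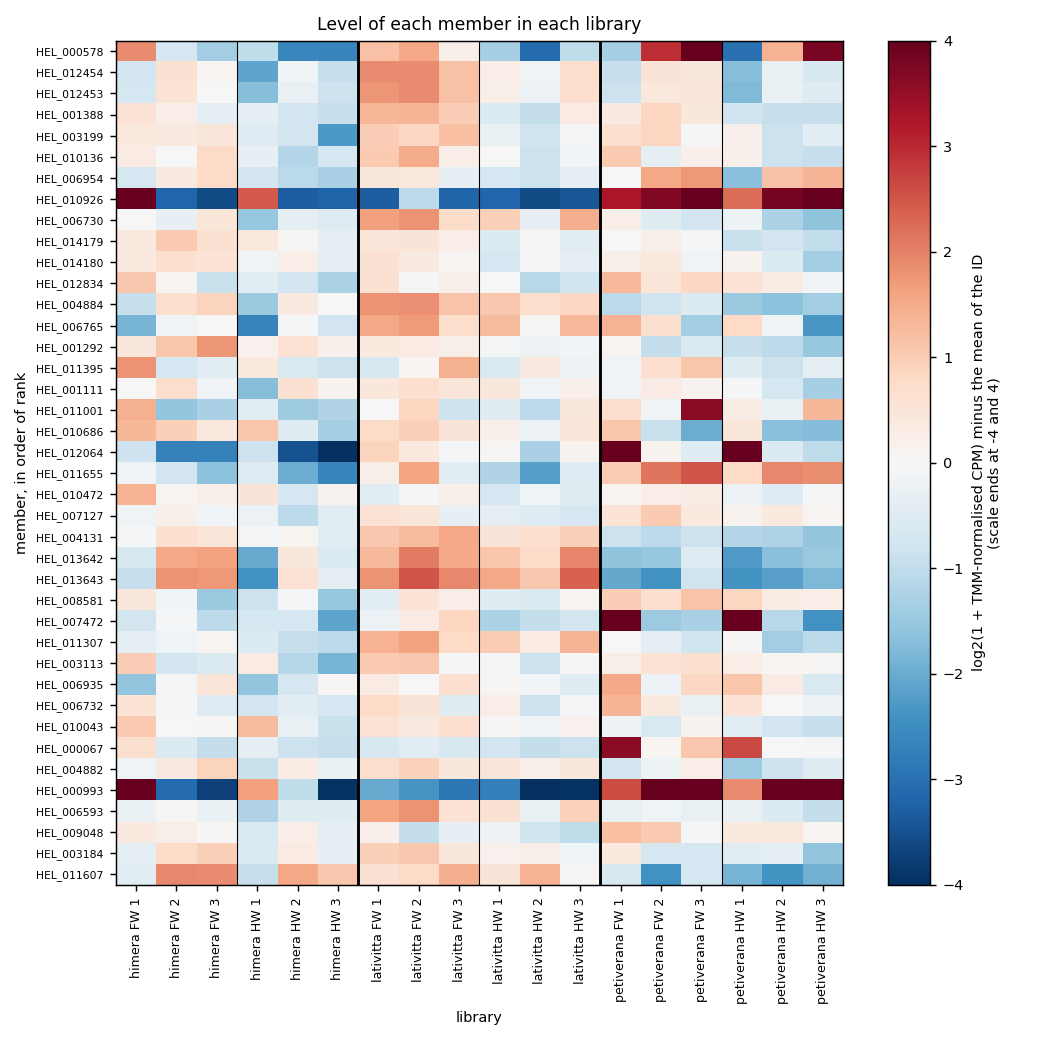
Level of each of the 40 members (rows, in order of rank) in each of the 18 libraries (columns), as log2(1 + TMM-normalised CPM) minus the mean of the ID, with colours ending at -4 and 4. Forewing columns are mostly above the hindwing columns of the same taxon, and HEL_010926 and HEL_000993 are high in petiverana and in himera number 1.

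The rule did not rank by differences between taxa, but its filter used the mean over all 18 libraries. That filter was reached through 1 taxon only by HEL_000067, with means of 0.591, 0.581 and 4.75 CPM in himera, lativitta and petiverana, and by HEL_001388 and HEL_011395, which were at 1 CPM or more in lativitta only. For these 3 a difference between taxa was favoured by the choice, and their taxon differences are not given as tests. All 40 members passed the filter on low counts of the edgeR fit. Between taxa 16 of them, HEL_000067 included, were called in at least 1 of 6 comparisons and 24 in none. Of all IDs 33.3% were called in at least 1. In himera against lativitta 0 of 40 were called in FW, where 0.934% of the 9957 IDs were (0.472% higher in himera and 0.462% lower), with 12 members at an unadjusted edgeR p under 0.05 (20.0% of all IDs). DESeq2 called 8 (11.2% of all IDs), of which 3 were higher in himera (7.10% of all IDs) and 5 lower (4.07%). The FW count was 1 without himera HW 1, lativitta FW 3 or lativitta HW 2, with 240, 37 and 115 of all IDs called, where the fit of all libraries called 93. It was 2 without petiverana HW 1 (146 of all IDs) and 8 without number 1 of himera and petiverana (1105). In HW 1 member was called, HEL_011307, lower in himera, against a background of 1.90% (0.944% higher and 0.954% lower). Both edgeR counts lie near the background. The median log2 difference of the members was -0.42 in FW and -0.48 in HW, beside 0.07 and 0.08 over all IDs. In TMM-normalised CPM lativitta lay above himera without overlap for 11 members in FW (background 13.8%) and 9 in HW (15.2%). Himera lay above lativitta for 1 member in FW (background 13.7%) and 1 in HW (14.5%). The 12 members and the 11 members in FW include HEL_001388, whose lativitta level the choice favoured. The medians include all 3 members that reached the filter through 1 taxon. Why the members leaned to lativitta was not tested.

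HEL_011307 was at 3.07, 2.13 and 1.88 TMM-normalised CPM in himera HW and at 11.2, 6.53 and 14.5 in lativitta HW. The taxa did not overlap, and in FW they were apart too, at 3.62, 4.28 and 5.46 against 14.7, 17.1 and 9.37. The HW difference came to a log2 value of -2.21 (SE 0.47, edgeR adjusted p = 0.033). It was not called when HW 2 or HW 3 of himera was left out (edgeR adjusted p 0.0824 and 0.111), nor without FW 1, HW 1 or HW 3 of lativitta (0.0523, 0.129 and 0.138), although the difference stayed between -2.21 and -1.94 there. The HW count was thus 0 in these 5 fits, which called 6 to 112 of all IDs against 189 with all libraries, and 2 without himera FW 1 (537). Fitting only the 2 groups compared gave an adjusted p of 0.0999.

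More members were called between lativitta and petiverana, as were more of all IDs. In FW 11 of 40 were called, of which 9 were higher and 2 lower in lativitta. In HW 14 were called, with 10 above petiverana and 4 below it. Over all IDs 24.0% were called in FW (11.3% higher in lativitta, 12.7% lower). The HW share was 25.0% (11.5% higher, 13.5% lower). Without HEL_000067 the member counts were 10 in FW (9 higher, 1 lower) and 13 in HW (10 higher, 3 lower). Called in both wings were 8 higher members (8.78% of all IDs) and 2 lower ones (10.4% of all IDs), of which HEL_000067 was 1. The 8 hold both HEL_013642 and HEL_013643, a pair that moved together. Whether FW and HW came from the same animals is not stated, so the wings are not taken as independent. The median log2 difference of the members was 0.42 in FW and 0.40 in HW, beside -0.04 and -0.07 over all IDs. These medians include HEL_000067, HEL_001388 and HEL_011395. In TMM-normalised CPM lativitta lay above petiverana without overlap for 17 members in FW (background 23.5%) and 13 in HW (22.9%). Petiverana lay above lativitta for 4 in FW (23.1%) and 7 in HW (23.2%). The 17 include HEL_001388, and the 4 and the 7 include HEL_000067.

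HEL_004131 was the member with the smallest p between lativitta and petiverana in both wings. In FW it was at 21.0, 24.3 and 29.5 TMM-normalised CPM in lativitta, 9.04, 15.6 and 13.8 in himera and 4.77, 4.13 and 4.95 in petiverana. In HW it was at 14.0, 15.8 and 19.6 in lativitta, 9.21, 10.5 and 6.92 in himera and 3.66, 3.45 and 2.50 in petiverana. The taxa stood in the order lativitta, himera, petiverana in both wings without overlap. The step between himera and lativitta was not called in FW (edgeR adjusted p = 0.0685) or HW (edgeR adjusted p = 0.0679). On the log2 scale lativitta FW exceeded petiverana FW by 2.43 (SE 0.25, edgeR adjusted p = 0.000181). The HW excess was 2.36 (SE 0.26, edgeR adjusted p = 0.000231). The difference held in all 18 fits that left out 1 library, in both wings, and with the ambiguous-read set in the model, at 2.06 or more in every fit run.

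HEL_004884 was at 28.9, 30.1 and 18.3 TMM-normalised CPM in lativitta FW and 3.18, 3.96 and 4.95 in petiverana FW. In HW it was at 17.4, 13.1 and 14.6 in lativitta and 2.13, 1.82 and 2.30 in petiverana. Lativitta was higher by a log2 difference of 2.67 in FW (SE 0.53, edgeR adjusted p = 0.00567). In HW the gap was 2.85 (SE 0.55, edgeR adjusted p = 0.00558). No dropped library ended either call. Himera lay in between or within petiverana, with number 1 at 3.62 in FW and 2.13 in HW and numbers 2 and 3 at 7.71 to 15.2. Lativitta lay wholly in the higher and petiverana wholly in the lower set for ambiguous reads, and with that set as a term the differences were 0.66 (adjusted p = 0.252) and 0.84 (0.165).

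Among the members lower in lativitta, HEL_000993 was called in both wings. HEL_011655 and HEL_010926 were called in HW only by the threshold, a difference between wings that was not tested. HEL_010926 held 4 reads in lativitta HW, at 0.333, 0 and 0.115 TMM-normalised CPM, against 54.8, 168 and 278 in petiverana HW. Its log2 difference was -9.88 (SE 3.36, edgeR adjusted p = 0.0462), and this call was not refitted singly. HEL_000067 also passed the threshold in both wings, but the choice favoured its high petiverana level, so its values are a description. HEL_000067 was at 0.448, 0.692 and 0.432 TMM-normalised CPM in lativitta FW and 26.4, 1.38 and 3.71 in petiverana FW. The HW libraries were at 0.333, 0.163 and 0.230 in lativitta and 13.1, 1.27 and 1.15 in petiverana. The groups did not overlap, and petiverana number 1 held most of it in both wings.

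HEL_000993 was at 11.1, 8.65 and 5.62 TMM-normalised CPM in lativitta FW and 300.3, 1209 and 2553 in petiverana FW. In HW it was at 6.45, 0.653 and 2.19 in lativitta and 183, 1464 and 1374 in petiverana. The groups did not overlap, with a log2 difference of -7.32 in FW (SE 2.27, edgeR adjusted p = 0.0343). In HW it reached -8.33 (SE 2.37, edgeR adjusted p = 0.0251). In FW the call was lost without any 1 lativitta FW library (adjusted p 0.104 to 0.106) and without petiverana FW 2 (0.0569) or FW 3 (0.0712), and in HW without lativitta HW 1 (0.0668), HW 2 (0.0827) or HW 3 (0.0869). With the ambiguous-read set in the model the differences were -0.69 (adjusted p = 0.868) and -1.69 (0.623), and himera number 1 was at 1193 CPM in FW and 154 in HW, against 2.17 to 23.2 in numbers 2 and 3.

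**Figure D5:**
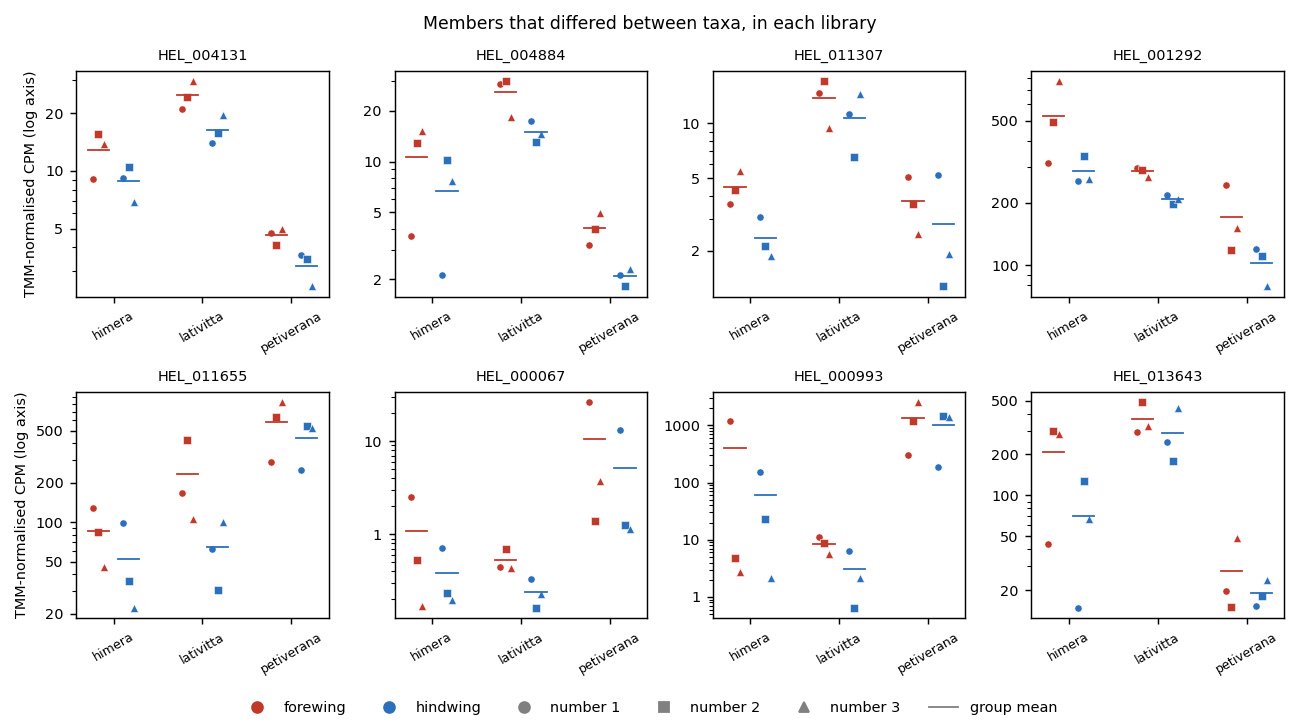
TMM-normalised CPM on a log axis (y axis) of 8 members that were called between taxa, in each library by taxon (x axis), with forewing in red and hindwing in blue, number by symbol, and the arithmetic mean of each group as a line. HEL_000067 is shown as a description, since the choice favoured its high petiverana level. HEL_004131 is in the order lativitta, himera, petiverana in both wings, and for HEL_004884, HEL_000993 and HEL_013643 himera number 1 stands apart from numbers 2 and 3.

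Himera against petiverana gave 6 called members in FW, of which 5 were higher in himera, the pair HEL_013642 and HEL_013643 among them. In HW 5 were called, of which 4 were higher in himera. The remaining member of each wing was lower. The FW background was 7.30% of IDs (4.20% higher in himera, 3.10% lower). The HW background was 9.19% (5.31% higher, 3.88% lower). In TMM-normalised CPM himera lay above petiverana without overlap for 5 members in FW (background 12.1%) and 4 in HW (11.7%). Petiverana lay above himera for 4 in FW (10.5%) and 8 in HW (10.7%), and the 8 include HEL_000067. Fits of the 2 groups alone called 0 members and 0 of all IDs in either wing. Called in both wings were HEL_001292, HEL_004131 and HEL_011607, higher in himera (3.05% of all IDs), and HEL_011655, lower (2.24%). The counts moved with the libraries kept, for the members and for all IDs. The FW count was 12 without himera FW 1 (1726 of all IDs, against 727 with all libraries) and 17 without number 1 of both taxa (4202). It was 1 without himera FW 2, himera FW 3, petiverana FW 2 or petiverana FW 3 (119 to 228 of all IDs) and 2 without lativitta HW 1 (461). It was 3 without himera HW 3, any lativitta FW library, lativitta HW 2 or HW 3, petiverana FW 1, petiverana HW 2 or petiverana HW 3 (498 to 612). In HW the count was 10 without himera HW 1 (1853 of all IDs, against 915), 8 without petiverana FW 1 (1085) and 17 without number 1 of both taxa (4293). It was 2 without himera HW 3 (208) and 1 without himera HW 2, petiverana HW 2 or petiverana HW 3 (162 to 280).

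HEL_004131 was again the member with the smallest p in both wings, with himera above petiverana. The FW log2 difference was 1.48 (SE 0.25, edgeR adjusted p = 0.00616). For HW it was 1.47 (SE 0.25, edgeR adjusted p = 0.0067). HEL_004131 stayed called without any 1 library and lost the call in the fits of the 2 groups alone (adjusted p = 0.187 and 0.198). HEL_001292 was at 310.3, 493 and 777 TMM-normalised CPM in himera FW and 245, 118 and 152 in petiverana FW. In HW it was at 256, 338 and 263 in himera and 120, 110 and 79.1 in petiverana. The taxa were apart in both wings, with himera higher by a log2 difference of 1.62 in FW (SE 0.33, edgeR adjusted p = 0.0157). The HW figure was 1.47 (SE 0.33, edgeR adjusted p = 0.0189). Without himera or petiverana number 2 or 3 of the wing compared the adjusted p was 0.0513 to 0.0679 in FW and 0.052 to 0.077 in HW, and with the ambiguous-read set in the model 0.0558 and 0.0559. Fits of the 2 groups alone gave 0.229 and 0.199.

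HEL_011655 was higher in petiverana. In FW it was at 289.5, 639 and 829 TMM-normalised CPM in petiverana, 129, 83.5 and 45.8 in himera and 167, 426 and 106 in lativitta. In HW the values were 250.1, 541 and 525 in petiverana, 99.2, 35.4 and 22.2 in himera and 61.9, 30.5 and 99.8 in lativitta. Petiverana was apart from himera in both wings, and the log2 difference of himera minus petiverana was -2.77 in FW (SE 0.71, edgeR adjusted p = 0.0351). The HW value was -3.07 (SE 0.72, edgeR adjusted p = 0.0231). Lativitta minus petiverana was -2.78 in HW (SE 0.72, edgeR adjusted p = 0.0169), again without overlap. The FW call against himera was lost without number 2 or 3 of himera or petiverana FW (adjusted p 0.0818 to 0.141) and without lativitta HW 1 (0.0528). In HW it was lost without number 2 or 3 of himera or petiverana HW (0.0619 to 0.1), and the HW call against lativitta without lativitta HW 1 (0.0643) or HW 2 (0.0636). With the ambiguous-read set in the model the adjusted p was 0.143 and 0.0585 against himera and 0.343 against lativitta, and with the 2 groups alone it was 0.187 and 0.208 against himera.

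Between lativitta and petiverana the counts also depended on single libraries, for the members and for all IDs. In FW 6, 5 and 7 members were called without lativitta FW 1, FW 2 and FW 3, where 917, 965 and 1270 of all IDs were called against 2386 with all libraries. Without petiverana FW 2 or FW 3 it was 7 each (1387 and 1370 of all IDs). The HW count was 6, 9 and 7 without lativitta HW 1, HW 2 and HW 3 (881, 1238 and 1057 of all IDs, against 2491), and 8 without petiverana HW 2 (1419). Without number 1 of himera and petiverana 21 members were called in FW (4589 of all IDs) and 18 in HW (4673). With the ambiguous-read set in the model they were 4 (940) and 3 (825), over a fit in which himera alone has libraries of both sets. The part of that split in the taxon differences was not tested.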

How the data were processed

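Each library had its own table of whole-number read counts by gene ID, deposited by the authors without normalisation. Per the submitters' processing notes the tools were TopHat, bedtools and DESeq2, with no version or role. The genome build, annotation and strandedness were not given in the sources used here. IDs that overlap or have near-identical copies are uncertain. The 5 summary rows (49.4% to 62.4% of reads) were left out. Depth was 4599197 to 17002996 gene reads per library, and intervals cover counting error only.

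Counts were fitted in R 4.3.3 with edgeR 4.0.16: filterByExpr (9957 IDs kept), TMM, glmQLFit and glmQLFTest with 1 mean per group over 18 libraries, Benjamini-Hochberg adjustment over the 9957 IDs and a threshold of 0.05. The steps were run on simulated counts with independent libraries and less spread than the common dispersion of 0.361 fitted to these data. That run does not show how the fit behaves at the spread of these libraries. DESeq2 1.42.0 and the other settings listed in the closing section were alternatives. The members, lists and tests were chosen with earlier results of these data known.

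The rule for named IDs took the 10 first-ranked members, the last 3 and the next 3, the 5 with the most CPM, members apart in all taxa, members with adjacent numbers, the 3 IDs most like the first, and per comparison of taxa up to 2 called members per direction. The planned lists by gene symbol were not run.

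Deviations of FW and HW with equal numbers correlated in himera (r 0.94, 0.90 and 0.87) and petiverana (0.96, 0.90 and 0.91). In lativitta r was 0.63, -0.57 and -0.49. The labels do not say that equal numbers pair the wings, and r between unequal numbers of a taxon is not given. Himera number 1 also differed from numbers 2 and 3 in its ambiguous reads in both wings. These r therefore cannot show which FW and HW libraries belong together. Between taxa, r was -0.16 to 0.07.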

Additional observations from a re-analysis of the deposited data

How the results depend on the processing

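The number of the 40 members taken again was 34 with TMM, 35 with 0.5 and 27 with 5 added to CPM, 30 with a mean of at least 5 CPM, 17 to 36 without 1 library, and 25 without number 1 of himera and petiverana. Members called in himera against lativitta, himera against petiverana and lativitta against petiverana numbered 0, 6 and 11 in FW and 1, 5 and 14 in HW. DESeq2 gave 8, 7 and 14, then 8, 11 and 16. Median-of-ratios factors gave 1, 4 and 12, then 1, 5 and 14. No filter gave 0, 3 and 9, then 1, 5 and 12. Fitting only the groups compared gave 0, 0 and 12, then 0, 0 and 10. Adding the ambiguous-read set to the model gave 2, 3 and 4, then 2, 4 and 3. Leaving out number 1 of himera and petiverana, chosen after seeing the data, gave 8, 17 and 21, then 4, 17 and 18. Without 1 library the ranges were 0 to 2, 1 to 12 and 5 to 14 in FW and 0 to 2, 1 to 10 and 6 to 16 in HW. Equal numbers do not pair taxa, and with number as a replicate block the counts were 0, 6 and 13, then 1, 7 and 19. Between wings 1 member was called, 3 with DESeq2, 0 with median-of-ratios factors, 0 without a filter, 0 with a replicate block within each taxon, 0 without number 1 of himera and petiverana, and 0 to 2 without 1 library.

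Over all IDs the 6 counts were 93, 727, 2386, 189, 915 and 2491. They were 1112, 1590, 3218, 1243, 1760 and 3380 with DESeq2, 0, 0, 2363, 1, 0 and 2247 with only the groups compared, 376, 878, 940, 603, 988 and 825 with the set in the model, 38, 504, 2052, 97, 683 and 2075 without a filter, 167, 945, 2810, 353, 1121 and 2981 with the replicate block, and 1105, 4202, 4589, 1554, 4293 and 4673 without number 1 of himera and petiverana. The differences refitted one by one, up to 2 per direction and comparison, kept their sign in the 396 refits that gave a value and the call in 325. These include the wing difference of HEL_001388, which the rule used, and HEL_000067 between taxa, which the choice favoured. Most refits left out only 1 library and shared the rest, so the kept signs are a description. Other called members were not refitted singly, and 2 settings gave no value for HEL_000067. Why counts moved was not tested. Members with few reads, such as HEL_001388, limit the precision of wing ratios.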
